A study of Homo sapiens with 6 samples.

Results

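The small nucleolar RNA host genes examined here were the rows of the gene table whose symbol is SNHG followed by a number, together with GAS5, ZFAS1, EPB41L4A-AS1, DANCR and TMEM107. They made up 30 of the 58735 genes in the table, with 29 distinct symbols because SNHG28 names 2 rows. The cells were Hep-G2, an established human liver cancer line, and both groups had received a lentivirus with a short hairpin RNA followed by puromycin selection according to the study's methods. The 3 sh-NC libraries came from cells labelled WT that carried a control hairpin, and the 3 sh-CLGN libraries from cells labelled CLGN knock down that carried a hairpin against CLGN, a chaperone of the endoplasmic reticulum. The comparison asks which transcripts differ when CLGN is knocked down. Each group carried 1 hairpin, so an effect of the hairpin or of the cell population cannot be told apart from the loss of CLGN. All libraries share the same batch label, and the labels do not say that replicates were separate cultures, so p-values measure the spread between these libraries, which may be technical.

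Most human small nucleolar RNAs (snoRNAs) are cut out of the introns of longer transcripts. Many box C/D snoRNAs guide ribose methylation of ribosomal RNA, many box H/ACA snoRNAs guide its pseudouridylation, and the related scaRNAs guide modification of spliceosomal RNAs in Cajal bodies. After splicing, the exons of a non-coding host gene form an RNA that many cells remove by nonsense-mediated decay, a pathway coupled to translation. Many host genes, like the genes of ribosomal proteins, start transcription at a C followed by further pyrimidines, the terminal oligopyrimidine (TOP) tract through which mTOR and LARP1 control translation and RNA stability. A difference in the level of a host RNA therefore says nothing by itself about the level of the snoRNA that it carries. In bulk libraries, fewer cells with a transcript and less RNA per cell cannot be told apart.

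The starts of host gene transcripts are shown because the pyrimidine tract is the sequence feature that these otherwise unrelated RNAs are known for. Each line gives the first 30 bases of an annotated transcript, read from the GENCODE 29 transcripts on GRCh38 from 5′ to 3′, and capitals mark an uninterrupted run of at least 4 C or T letters that begins with C at the first base. Where several transcripts of a gene opened with such a run, the one nearest the gene's 5′ end was taken. For a gene without one, the transcript with the longest shorter run was taken, or by name where these were equal, wherever it started. The DANCR transcript shown starts downstream of SNORA26, a small RNA gene within DANCR.
SNHG5, lower in sh-CLGN, chr6:85678704-85678733, minus strand: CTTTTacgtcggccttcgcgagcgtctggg
SNHG8, lower, chr4:118278758-118278787, plus strand: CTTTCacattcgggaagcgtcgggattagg
SNHG16, lower, chr17:76557769-76557798, plus strand: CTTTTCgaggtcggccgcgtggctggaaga
SNHG7, lower, chr9:136728155-136728184, minus strand: CTCTgcgtgcgccggaggctgccgtggcgg
SNHG19, higher, chr16:2155329-2155358, minus strand: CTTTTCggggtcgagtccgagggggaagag
SNHG3, higher, chr1:28506043-28506072, plus strand: CCTTTTTggagacagattcgcagtggtcgc
GAS5, not called, chr1:173867960-173867989, minus strand: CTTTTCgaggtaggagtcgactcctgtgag
ZFAS1, not called, chr20:49278642-49278671, plus strand: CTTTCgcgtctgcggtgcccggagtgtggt
SNHG4, not called, chr5:139274102-139274131, plus strand: CCTTTCCCCTCCggcctctgccggtgctgc
SNHG15, lower, without such a run, chr7:44986541-44986570, minus strand: ccgccatcctgggccccacgtgttgcctga
SNHG17, lower, without such a run, chr20:38435244-38435273, minus strand: ctcgaaatctgcagacatcttgatttttcc
DANCR, lower, without such a run, chr4:52713639-52713668, plus strand: gtccgtgcagtgccacaggagctagagcag

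Of the 20 host genes that could be tested, 14 (70%) had at least 1 annotated transcript that opened with such a run. Such a transcript was annotated for 6 of the 10 genes that were lower in sh-CLGN, 4 of the 5 that were higher and 4 of the 5 that were not called. Over all tested genes the share was 23.3%, over tested long noncoding genes 10.1%, and over tested ribosomal protein genes 84.3%. These shares depend on how many transcripts are annotated per gene, with a median of 8 in the host genes, 7 in all tested genes, 1 in long noncoding genes and 9 in ribosomal protein genes. With a single start per gene, taken from the RefSeq promoter windows on GRCh38.p14, 6 of 17 matched host genes opened with the run (35.3%), against 5.45% of all 35116 windows and 55.7% of the windows of ribosomal protein genes. By this measure the run was found in 2 of 9 lower, 2 of 4 higher and 2 of 4 host genes that were not called. SNHG1 opened with 3 pyrimidines at its RefSeq start. Of the genes shown above with a marked run, SNHG3, SNHG8, SNHG16 and GAS5 had no such run at the RefSeq start. The tract was thus found among genes of every outcome. In the same windows, read on both strands, the E-box CACGTG was present in 1 of 17 host genes (SNHG7, 122 bases before the start), against 7.26% of all windows. The tested genes SNHG6, SNHG15 and SNHG25 had no matched window and were not searched. The start of SNHG15 shown above also holds CACGTG. TGATGCAA, a form of the amino acid response element, and the cyclic AMP response element TGACGTCA were in 0 of 17 windows of host genes, against 0.866% and 1.85% of all windows.

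RNA was measured as FPKM, fragments scaled for gene length and for sequencing depth. The libraries held 14955816 to 16244639 reads in genes. The library sizes behind the FPKM values were 1.40e+07 to 1.55e+07 in sh-NC, below the reads of each library. In sh-CLGN they were 1.61e+07 to 1.70e+07, above the reads of each library. FPKM thus places sh-CLGN lower against sh-NC than scaling by read totals does. CLGN stood at 24.1, 21.0 and 26.1 FPKM in sh-NC and at 9.48, 8.88 and 8.60 FPKM in sh-CLGN, which is 37.8% of the control mean, with a log2 change of -1.31 (SE 0.081, limma adjusted p = 8.35e-06). All 8 hepatocyte markers were expressed, of which 3 were higher (AFP, FGB and TTR) and 4 lower, among them ALB and TF with log2 changes of -0.90 and -1.62, with a summed level of 7004 to 7245 FPKM in sh-NC and 7116 to 7586 FPKM in sh-CLGN. Of 8 fibroblast markers, 5 could be tested and 5 were higher. Among these, COL1A1, COL3A1 and LUM were under 1 FPKM in every sh-NC library. They could be tested only through the sh-CLGN libraries and so had to differ. The summed level was 7.17 to 8.51 FPKM in sh-NC and 48.5 to 49.9 FPKM in sh-CLGN, led by COL1A2. DCN was under 1 FPKM in every library. The 4 blood markers summed to 1.20 to 1.48 FPKM in sh-NC and 0.471 to 0.780 FPKM in sh-CLGN, and the 3 endothelial markers to 3.33 to 3.67 and 2.38 to 2.65 FPKM. The sh-CLGN libraries also had reads in more genes, 26814 to 27006 against 23578 to 23793, and a larger share of mitochondrial reads, 5.49% to 5.80% against 3.25% to 4.02%. The part of these differences in the results on host genes was not tested.

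Host genes moved in both directions and moderately. Of the 30 rows, 20 reached at least 1 FPKM in at least 3 libraries and were tested with limma on log2(FPKM + 1), with p-values adjusted over all 13074 genes tested by the Benjamini-Hochberg method and called at 0.05. Of these 20, 10 (50%) were lower in sh-CLGN, 5 (25%) were higher and 5 were not called. Over all tested genes, 39% were called lower and 26.7% higher, so the shares of the host genes were close to the background. Scaling by read totals instead gave 7 lower and 8 higher host genes and, over all genes, 3421 lower and 4956 higher in place of 5102 and 3496. The background of long noncoding genes alone ran the other way, with 41.2% called higher and 13.9% lower. A gene that reached the filter through the libraries of 1 group alone had to differ, and the sh-CLGN libraries had reads in more genes. How many long noncoding genes entered in this way was not counted, so their shares and median are no neutral background. The median log2 change was -0.11 in the tested host genes, -0.08 in all 13074 genes and 0.25 in the 1090 tested long noncoding genes. No host gene passed the test with a change of 2-fold or more, against 3.09% of all genes for higher and 3.19% for lower. The host genes ranged from -0.88 to 0.74. The upper end, also counted among the 5 higher genes, is SNHG25, which reached the filter on few reads through the sh-CLGN libraries alone, and the next was SNHG19 at 0.71. In 15 of 20 host genes (75%), the same 15 that were called, the libraries of the groups did not overlap, against 70.2% of all genes. The level summed over all 30 rows was 365 to 382 FPKM in sh-NC and 318 to 332 FPKM in sh-CLGN. As a share of all reads in genes the fall was smaller, from 0.0931% to 0.094% in sh-NC to 0.0841% to 0.0903% in sh-CLGN. The 10 lower genes summed to 226 to 246 FPKM in sh-NC and 169 to 174 FPKM in sh-CLGN, and the 5 higher genes to 17.0 to 19.4 and 26.6 to 29.7 FPKM, so the lower genes held the larger share of host RNA.

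**Figure D1:**
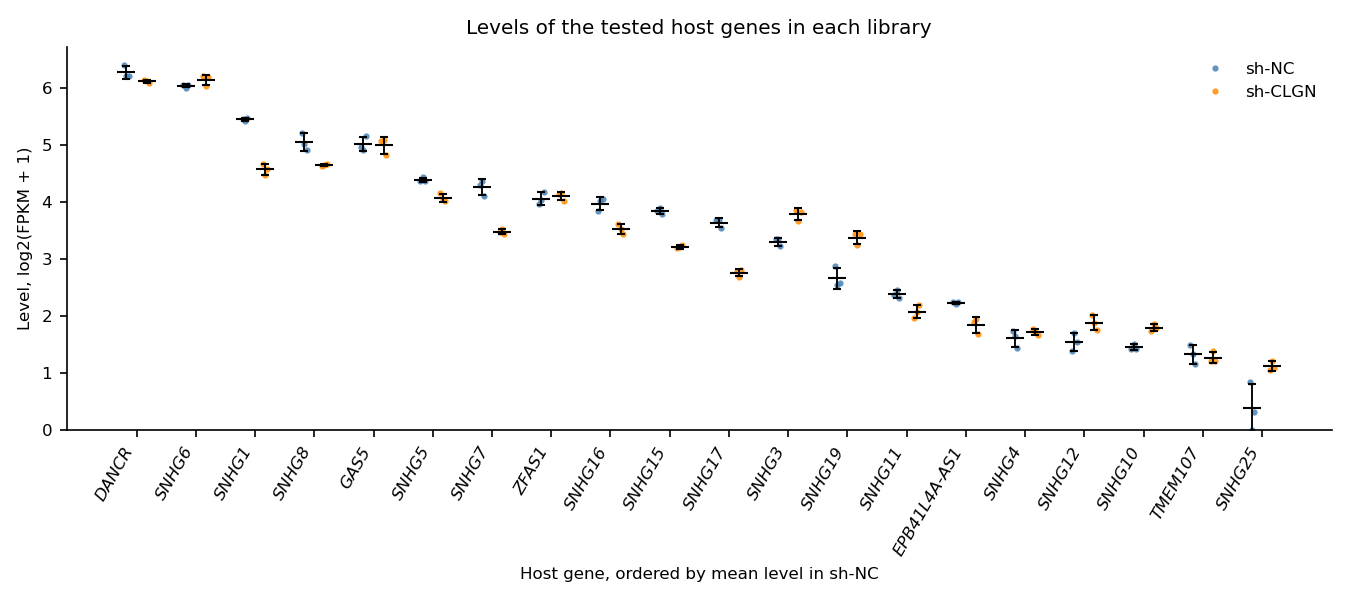
Level of each tested host gene as log2(FPKM + 1) in the 3 sh-NC and 3 sh-CLGN libraries; points are libraries, black bars the mean and SD, and genes run from the highest to the lowest mean in sh-NC. SNHG1, SNHG7, SNHG15 and SNHG17 stand apart with all sh-CLGN libraries below, SNHG3 and SNHG19 with all above, and GAS5, SNHG6 and ZFAS1 overlap.

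The kind of small RNA inside a host gene was not part of how the genes were chosen. Over all tested genes, 39% were called lower and 26.7% higher. Of the 9 tested hosts with box H/ACA snoRNAs only, 7 were lower, 1 was higher and 1 was not called. Their median log2 change was -0.39, and the 7 include DANCR, whose direction depended on the scaling. Of the 7 hosts with box C/D snoRNAs only, 3 were lower, 1 was higher and 3 were not called, with a median of -0.06. Both hosts with snoRNAs of both kinds, SNHG12 and SNHG25, were higher, as was SNHG10, the tested host of a scaRNA, but SNHG25 reached the filter through the sh-CLGN libraries alone. These counts are small and the difference between the kinds was not tested.

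Among hosts of box H/ACA snoRNAs, SNHG17 on chromosome 20, which carries SNORA71 copies, had 11.8, 11.8 and 10.6 FPKM in sh-NC and 5.87, 5.41 and 5.98 FPKM in sh-CLGN. All sh-CLGN libraries lay far below the lowest control, at 50.5% of the control mean, with a log2 change of -0.88 (SE 0.065, limma adjusted p = 1.88e-05). SNHG7 on chromosome 9, the host of SNORA17 copies, had 18.7, 19.6 and 16.0 FPKM in sh-NC and 10.1, 10.4 and 9.82 FPKM in sh-CLGN. Its level fell to 55.9% of the control mean, a log2 change of -0.78 (SE 0.075, limma adjusted p = 6.4e-05). SNHG15 on chromosome 7, the host of SNORA9, had 13.2, 13.7 and 12.7 FPKM in sh-NC and 8.05, 8.16 and 8.41 FPKM in sh-CLGN. The replicates were tight in both groups, and the log2 change was -0.63 (SE 0.052, limma adjusted p = 3.06e-05). These 3 genes kept their direction and call under each of 10 alternative settings and each of 6 fits that left out a library.

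Smaller falls were seen in the other box H/ACA hosts. SNHG8, the host of SNORA24, had 36.0, 31.3 and 28.9 FPKM in sh-NC and 23.6, 24.1 and 24.3 FPKM in sh-CLGN, so the control libraries were the more spread, and its log2 change was -0.40 (limma adjusted p = 0.00229). Under quantile normalization its log2 change was -0.14 and it was no longer called (limma adjusted p = 0.109). EPB41L4A-AS1, the host of SNORA13, had 3.71, 3.58 and 3.71 FPKM in sh-NC and 2.68, 2.85 and 2.19 FPKM in sh-CLGN, a log2 change of -0.39 (limma adjusted p = 0.00402) that held under every alternative. SNHG11, with SNORA60 and SNORA71E, went from 4.19 ± 0.243 to 3.20 ± 0.337 FPKM (SD, n = 3 each), a log2 change of -0.31 (limma adjusted p = 0.00943) that shrank to -0.08 after correction for GC content, where it was not called. DANCR, a long noncoding RNA named for its action against differentiation and the most abundant host gene here in sh-NC, had 82.9, 73.1 and 72.5 FPKM in sh-NC and 69.0, 68.3 and 66.7 FPKM in sh-CLGN. Its groups lay just apart, its log2 change of -0.16 was at the edge of the threshold (limma adjusted p = 0.0468), and it turned to 0.13 under quantile normalization, so that its direction depended on the scaling. The call on DANCR was kept in 1 of 6 fits without a library.

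SNHG3 was the box H/ACA host that went up. It carries SNORA73A and SNORA73B on chromosome 1 and had 9.10, 9.11 and 8.28 FPKM in sh-NC and 13.5, 11.7 and 13.2 FPKM in sh-CLGN. All sh-CLGN libraries lay above all controls, with a log2 change of 0.49 (SE 0.069, limma adjusted p = 0.000467), and the range over the alternatives was 0.49 to 0.66. SNHG3 lies wholly inside RCC1, a gene on the same strand that encodes the exchange factor of Ran, and RCC1 itself rose by 0.71 on the log2 scale (limma adjusted p = 1.94e-05), so reads may have been shared between them. SNHG4, the host of SNORA74A, had 2.04 ± 0.308 and 2.27 ± 0.120 FPKM, and its libraries overlapped. It was not called, but 1 of 10 alternatives called it higher (limma adjusted p = 0.0456), and its log2 change over them ranged from 0.01 to 0.26.

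Among hosts of box C/D snoRNAs, SNHG1 had the largest fall. It holds 6 box C/D snoRNA genes on chromosome 11 and had 42.9, 41.5 and 43.1 FPKM in sh-NC and 24.2, 21.1 and 22.9 FPKM in sh-CLGN. The level was 53.5% of the control mean, with no overlap between groups, and the log2 change was -0.88 (SE 0.058, limma adjusted p = 1.16e-05). Its range over the 10 alternatives was -0.90 to -0.60. SNHG16, with SNORD1A, SNORD1B and SNORD1C, had 13.2, 15.1 and 15.4 FPKM in sh-NC and 11.1, 10.5 and 9.73 FPKM in sh-CLGN, a log2 change of -0.45 (SE 0.075, limma adjusted p = 0.0011). SNHG5, with SNORD50B inside the annotated gene, had 19.4, 20.5 and 19.6 FPKM in sh-NC and 16.7, 15.5 and 15.2 FPKM in sh-CLGN. Its log2 change was -0.31 (limma adjusted p = 0.00142), but -0.09 under quantile normalization, where it was not called.

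SNHG19, a short lincRNA on chromosome 16 that carries SNORD60, went the other way. It had 6.29, 4.81 and 4.91 FPKM in sh-NC, from 24 to 30 reads per library, and 9.82, 8.38 and 9.78 FPKM in sh-CLGN, from 47 to 57 reads. The groups were apart, and the log2 change of 0.71 (SE 0.102, limma adjusted p = 0.000496) held under all alternatives, with a range of 0.71 to 0.94. SNHG6, ZFAS1 and TMEM107 were not called. SNHG6, the host of SNORD87, had 65.4, 63.0 and 64.8 FPKM in sh-NC and 72.4, 64.6 and 71.4 FPKM in sh-CLGN, a log2 change of 0.11 (limma adjusted p = 0.124). ZFAS1, the host of SNORD12 and its copies, had 15.6 ± 1.27 and 16.1 ± 0.863 FPKM. Both of them were called higher under quantile normalization and under scaling by read totals, at 0.40 and 0.30 for SNHG6 and at 0.25 and 0.23 for ZFAS1. SNHG6 was also called higher under TPM rescaling (0.23) and without sh-CLGN replicate 2 (0.16), and ZFAS1 after the GC correction (0.28). TMEM107 encodes a protein of the ciliary transition zone and holds SNORD118, the U8 snoRNA. It had 1.51 ± 0.294 and 1.41 ± 0.169 FPKM.

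GAS5, named for its accumulation in growth-arrested cells, is known as a host of many box C/D snoRNAs, but no small RNA gene is listed inside it in the annotation behind the table. Its levels were 30.1, 29.1 and 34.5 FPKM in sh-NC and 32.4, 32.7 and 27.3 FPKM in sh-CLGN. The libraries overlapped fully, and the log2 change was -0.02 (SE 0.088, limma adjusted p = 0.853), although quantile normalization gave 0.26 (limma adjusted p = 0.0471). GAS5 and SNHG1 are both long noncoding RNAs of high abundance in these cells, and their levels in sh-NC were of like size, 31.2 ± 2.86 and 42.5 ± 0.856 FPKM, while in sh-CLGN SNHG1 stood at 22.7 ± 1.58 FPKM and GAS5 at 30.8 ± 3.03 FPKM. Whether their changes differ was not tested.

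The remaining higher host genes had low levels. SNHG12, with SNORD99 and box H/ACA snoRNAs, had 1.60, 2.25 and 1.89 FPKM in sh-NC and 3.04, 2.65 and 2.35 FPKM in sh-CLGN. Its log2 change was 0.34 (SE 0.109, limma adjusted p = 0.0249), and the call was lost in 4 of 6 fits without a library (sh-NC replicate 1 or 3, sh-CLGN replicate 1 or 2), with a limma adjusted p of up to 0.0886. SNHG10, the host of SCARNA13, had 1.66, 1.83 and 1.66 FPKM in sh-NC and 2.33, 2.60 and 2.42 FPKM in sh-CLGN, and its log2 change of 0.35 (SE 0.075, limma adjusted p = 0.00405) held under all alternatives. SNHG25, with SNORD104 and SNORA50C, rested on 4 reads in the sh-NC libraries together and 16 in the sh-CLGN libraries, a ratio of 3.56 after scaling for depth (95% exact interval 1.15 to 14.6, counting error only). It reached the filter through the sh-CLGN libraries alone and so had to differ, and its log2 change was 0.74 (limma adjusted p = 0.0119). The change was 0.45 under quantile normalization, where it was not called, and reached 2.03 over the other alternatives.

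The 10 rows that were not tested did not reach 1 FPKM in 3 libraries. SNHG9, with 4, 3 and 6 reads in the control libraries against 9, 14 and 9 in the sh-CLGN libraries, had a ratio of 2.19 after scaling for depth (95% exact interval 1.12 to 4.54) and no overlap between groups. SNHG20 had 0.695, 0.574 and 0.605 FPKM in sh-NC and 0.475, 0.471 and 0.539 FPKM in sh-CLGN, so all sh-CLGN libraries were below. SNHG21, SNHG26, SNHG22 and SNHG14 overlapped between groups. SNHG14 is the long imprinted transcript of the Prader-Willi region, and it had 11 reads over the controls and 10 over the sh-CLGN libraries. SNHG27 and 1 row of SNHG28 had no read in a control library, and 4 and 2 reads respectively over the sh-CLGN libraries. The other row of SNHG28 and SNHG18 had no read in any library, which allows up to 3 reads per library.

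**Figure D2:**
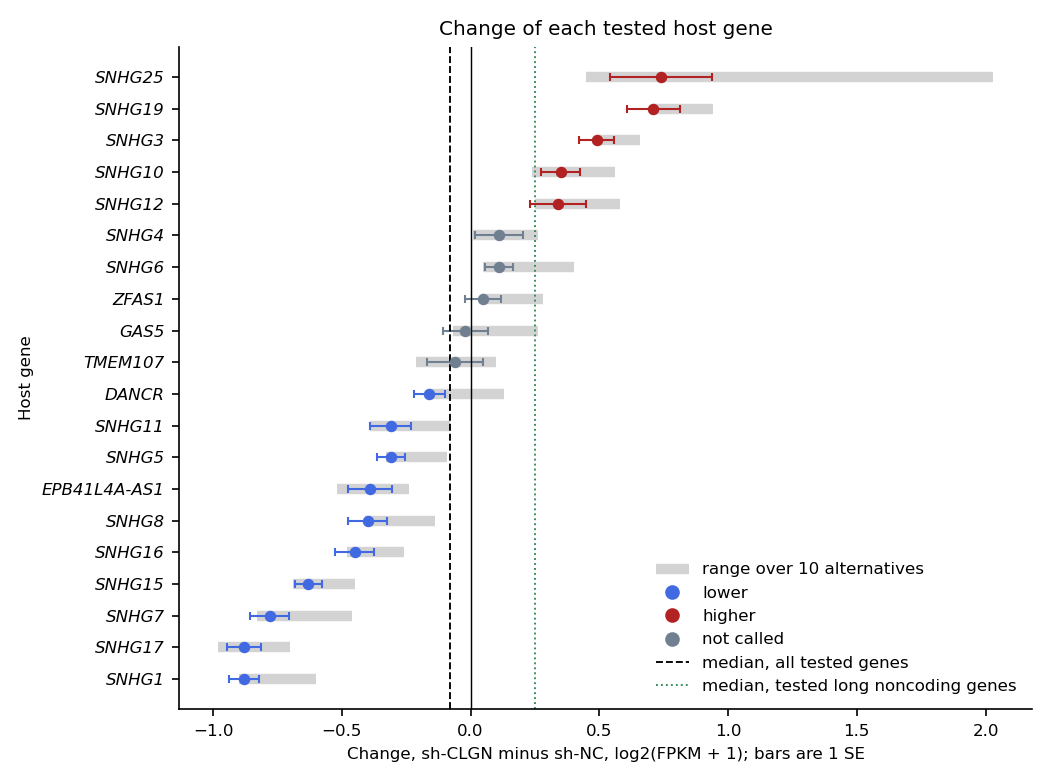
Log2 change of each tested host gene, sh-CLGN minus sh-NC, with bars of 1 SE and colours for the call; grey bands span the 10 alternative settings, the dashed line is the median of all tested genes (-0.08) and the dotted line that of tested long noncoding genes (0.25). SNHG1, SNHG17, SNHG7 and SNHG15 lie lowest with bands that stay below 0, while the bands of DANCR, TMEM107 and GAS5 cross 0. The median of long noncoding genes takes in genes that could reach the filter through 1 group alone.

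Several host genes share a start region with a protein-coding gene or overlap one. Some of these neighbours, chosen after their values were seen, were compared with them. Pairs whose host gene was not tested were left out of the comparison. Among these, SNHG9 starts 99 bases from RPS2 (log2 change -0.82, limma adjusted p = 2.59e-05) and SNHG22 63 bases from ACAA2, which was not called. SNHG1 starts 188 bases from SLC3A2 on the other strand with no overlap. SLC3A2, the heavy chain of amino acid transporters at the cell surface, averaged 117 ± 8.57 FPKM in sh-NC and 215 ± 2.34 FPKM in sh-CLGN and so rose, with a log2 change of 0.87 (SE 0.060, limma adjusted p = 1.3e-05), while SNHG1 fell by 0.88. SNHG19 starts 340 bases from TRAF7, and this pair too was opposite, with TRAF7 going from 26.7 ± 2.64 to 17.1 ± 0.408 FPKM (log2 change -0.61, limma adjusted p = 0.000176). SNHG10 overlaps GLRX5, a mitochondrial glutaredoxin, by 1370 bases on the other strand, and GLRX5 fell by 0.44 on the log2 scale (limma adjusted p = 0.000156). ZFAS1 and ZNFX1, which start 248 bases apart, had log2 changes of 0.05 and 0.02 and neither was called. GAS5 was not called. ZBTB37, with a start 800 bases away and an overlap of 801 bases, had 0.592 ± 0.091 FPKM in sh-NC and 1.25 ± 0.146 FPKM in sh-CLGN. It reached the filter through the sh-CLGN libraries alone and so had to differ, with a log2 change of 0.50 (limma adjusted p = 0.00269). SNHG7 and FAM69B overlap by 2685 bases on opposite strands and both fell, FAM69B with a log2 change of -1.03 (limma adjusted p = 7.29e-05). The sources used here do not say whether reads were counted by strand, so values of overlapping pairs may hold reads of the partner, which does not apply to SNHG1 and SLC3A2 or to SNHG19 and TRAF7.

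**Figure D3:**
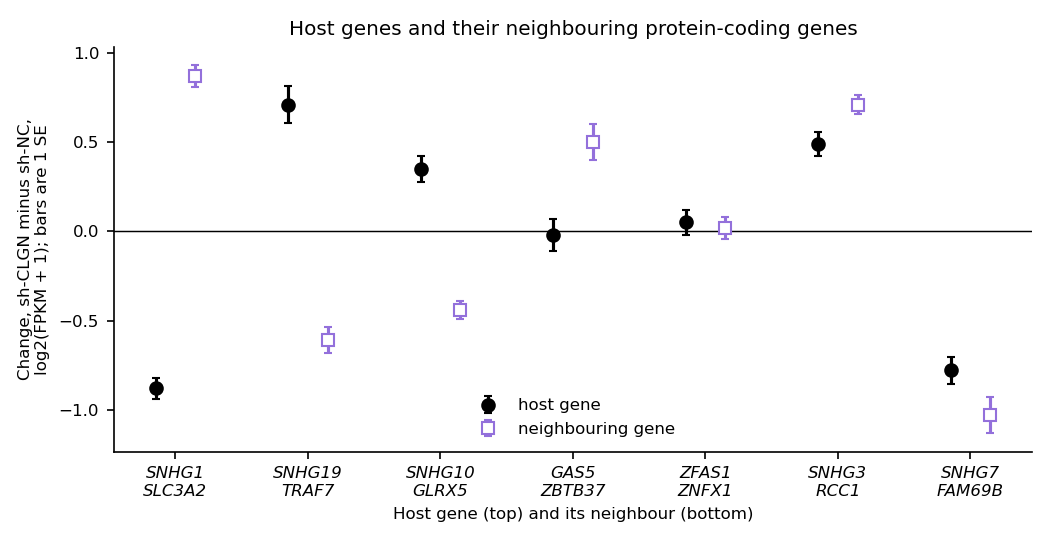
Log2 change with bars of 1 SE for 7 host genes (filled circles) and their neighbouring protein-coding genes (open squares). SNHG1, SNHG19 and SNHG10 lie on the opposite side of 0 from their neighbours, whereas SNHG3 with RCC1 and SNHG7 with FAM69B lie on the same side.

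Few reads were assigned to the small RNAs themselves. The annotation places 130 small RNA genes inside the host genes, 83 of them in SNHG14, and 113 of the 130 had no read in any library. Some of them overlap annotated exons of the host, as in SNHG1, whose 6 small RNA genes had no read. The sources used here do not say whether reads shared by 2 genes were counted. A small RNA gene without a read is therefore no sign that its RNA was absent. Of the 17 with a read, 12 could be tested, and 1 was called, SNORA26, which lies within DANCR. The sequences of SNORA26 and of SNORA73B, the small RNA with the most reads inside any host gene, are given from the GENCODE 29 transcripts with the ACA box near the 3′ end in capitals, and SNORD12B of ZFAS1 with its C and D boxes in capitals.
SNORA26, chr4:52713249-52713370, plus strand: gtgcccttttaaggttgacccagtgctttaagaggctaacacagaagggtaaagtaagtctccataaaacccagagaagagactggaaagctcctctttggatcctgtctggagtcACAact
SNORA73B, chr1:28508559-28508762, plus strand: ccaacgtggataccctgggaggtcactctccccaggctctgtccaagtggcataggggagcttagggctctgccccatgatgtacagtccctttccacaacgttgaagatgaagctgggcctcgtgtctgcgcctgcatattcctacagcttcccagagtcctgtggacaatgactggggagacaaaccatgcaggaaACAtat
SNORD12B, chr20:49280319-49280409, plus strand: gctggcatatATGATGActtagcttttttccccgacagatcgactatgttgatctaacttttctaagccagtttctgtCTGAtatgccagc

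SNORA26 was hit by 9, 14 and 7 reads in the controls against 21, 25 and 20 in sh-CLGN, or 5.62 ± 2.10 and 10.9 ± 1.36 FPKM. Every sh-CLGN library lay above every control, with a log2 change of 0.89 (SE 0.206, limma adjusted p = 0.00561) that ranged from 0.67 to 1.13 over all alternatives and left-out libraries, while DANCR lay lower in sh-CLGN. SNORA73B was hit by 18, 14 and 23 reads in the controls against 24, 20 and 25 in sh-CLGN, and its libraries overlapped (log2 change 0.15, limma adjusted p = 0.36), while SNHG3 rose. SNORD12B had 12 reads over the controls and 28 over the sh-CLGN libraries (log2 change 0.76, SE 0.309, limma adjusted p = 0.0583). Inside SNHG17, which fell, SNORA71C had 31 and 55 reads, SNORA71A 23 and 23, and SNORA71B 39 and 28, and none of them was called. The SNORA71 copies are related in sequence, and whether reads were split between them was not tested. The libraries were made for longer RNA, so reads at a small RNA gene cannot be told apart from reads of the unspliced host transcript.

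**Figure D4:**
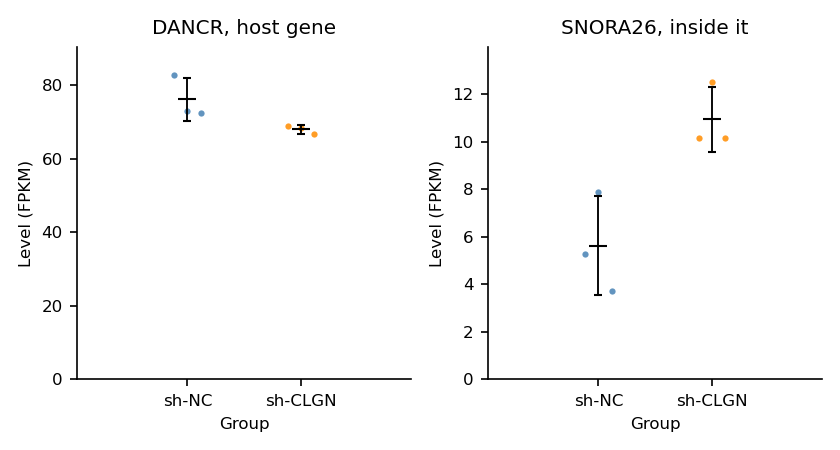
FPKM of DANCR (left) and of SNORA26 inside it (right) in each sh-NC and sh-CLGN library, with the mean and SD as black bars and both axes starting at 0. DANCR lies between 66.7 and 82.9 FPKM in all libraries, whereas SNORA26 is higher in all 3 sh-CLGN libraries than in any sh-NC library.

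Genes that act on snoRNAs or on host RNAs were examined as lists. Of the 4 core proteins of box C/D particles, 3 were lower and 0 higher, beside 39% and 26.7% of all tested genes. FBL, the methyltransferase fibrillarin, went from 107 ± 6.31 to 69.3 ± 2.52 FPKM (log2 change -0.62, limma adjusted p = 5.08e-05), NOP56 had a log2 change of -0.52, and SNU13 one of -0.17 that turned to 0.11 under quantile normalization. NOP58 was not called (log2 change -0.19, limma adjusted p = 0.0748). Of the 4 core proteins of box H/ACA particles, 3 were lower and 1 was higher. DKC1, the pseudouridine synthase dyskerin, went from 31.6 ± 1.31 to 21.5 ± 0.746 FPKM (log2 change -0.53, limma adjusted p = 6.63e-05), NHP2 and GAR1 had log2 changes of -0.61 and -0.52, and NOP10 rose by 0.48 (limma adjusted p = 0.0106). Thus the catalytic subunit of each particle was among the lower genes. Of 11 assembly factors of these particles, 7 were lower and 1 was higher, beside the same 39% and 26.7% of all tested genes, with a median log2 change of -0.28, and NOLC1, RUVBL1, PIH1D1 and RUVBL2, the 4 with the smallest p, had changes of -0.38, -0.38, -0.38 and -0.42. NOLC1 and RUVBL2 were not called under quantile normalization, at -0.10 and -0.14.

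Of 11 nonsense-mediated decay factors, 6 were lower and 2 higher, beside 39% and 26.7% of all tested genes, with a median log2 change of -0.21. UPF1, the helicase of the pathway, went from 68.9 ± 4.20 to 36.2 ± 1.14 FPKM (log2 change -0.91, limma adjusted p = 8.81e-06), and SMG5, which binds phosphorylated UPF1, from 88.3 ± 3.61 to 42.8 ± 1.27 FPKM (log2 change -1.03, limma adjusted p = 3.16e-06). SMG9 had a log2 change of -0.41. When values were rescaled to TPM, shares of all transcripts in a library, or by read totals, 3 of the 11 were lower. Of the 5 members of the exon junction complex, which marks spliced RNA, 4 were lower and 0 higher, with RBM8A at -0.44, EIF4A3 at -0.42, MAGOHB at -0.38 and CASC3 at -0.23, and 2 of the 5 were lower under quantile normalization. Of 16 genes that regulate translation of TOP transcripts, 6 were lower and 6 higher, beside the same shares of all tested genes. EIF4EBP2 and EIF4EBP1, inhibitors of cap-dependent translation under mTOR, had log2 changes of -0.82 and -0.77, LARP1 of -0.58 and LARP4 of 0.43.

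Protein-coding genes that hold snoRNAs were the other class of hosts. Of the 28 ribosomal protein genes among them, 25 were lower and 0 higher, with a median log2 change of -0.44, led by RPL27A, which went from 72.0 ± 4.64 to 26.0 ± 1.07 FPKM (log2 change -1.43, limma adjusted p = 2.07e-06). RPL3, RPSA and RPS3 had log2 changes of -0.86, -0.79 and -0.64. Under quantile normalization 12 of the 28 were lower and 2 higher, so the count rested on the scaling. Of the 113 other protein-coding hosts tested, 52 were lower and 29 higher, near the 39% and 26.7% of all tested genes, with a median of -0.14. They included ODC1, the first enzyme of polyamine synthesis (log2 change -1.70), PHB2 (-0.94) and ATP5F1B (-0.82), and among the higher ones HSPA8, a constitutive heat shock protein (0.85). The 20 tested SNHG-type host genes had a median of -0.11.

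**Figure D5:**
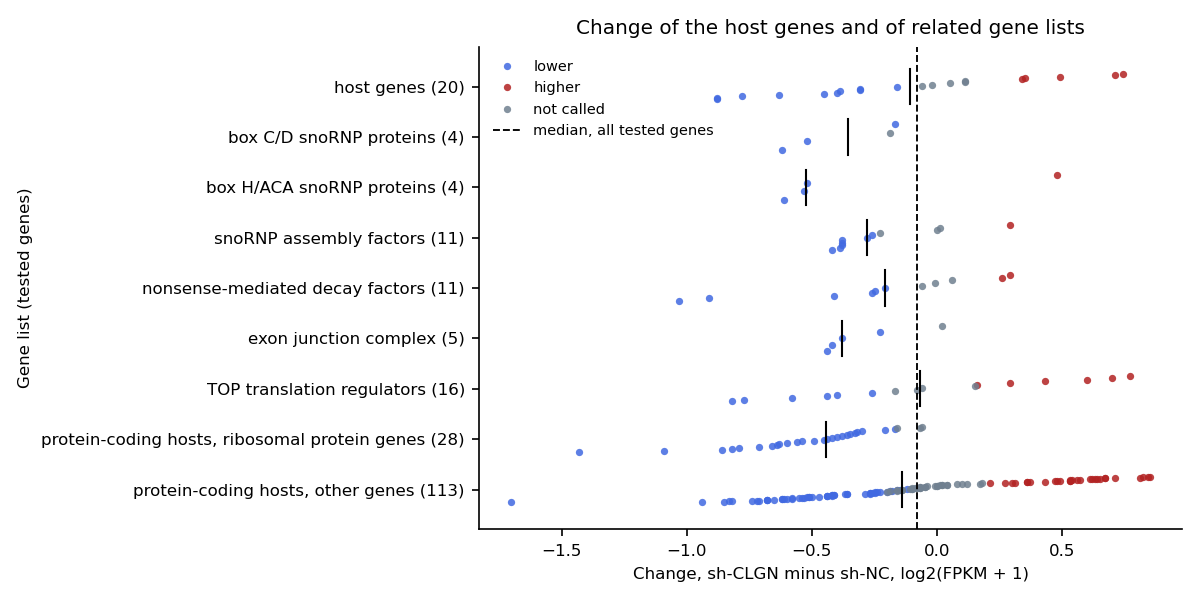
Log2 change, sh-CLGN minus sh-NC, of each tested gene of the host genes and of 8 related lists, with the number of tested genes in brackets, colours for the call, black ticks for list medians and the dashed line for the median of all tested genes. The medians run from -0.53 in box H/ACA particle proteins to -0.07 in the regulators of TOP translation, and the host genes spread to both sides.

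Base composition varied among the host genes. The GC content, taken from the longest annotated transcript of each gene, had a median of 49.5% in the lower host genes, 56.1% in the higher ones and 43.2% in those not called. It was 48.1% in all tested genes, and the range over the host genes was 42% to 65.9%. The difference between these sets was not tested. SNHG7, with the highest GC content, was lower, and SNHG6, with the lowest, was not called. After a GC correction of each library, 8 host genes were lower and 6 higher.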

How the data were processed

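Total RNA of Hep-G2 cells was sequenced in 6 NEBNext Ultra libraries, of which 3 were sh-NC and the other 3 sh-CLGN. The submitters' processing notes name HISAT2 2.0.5, featureCounts and GRCh38, and the counting settings, strand included, are not given in the sources used here. The authors deposited 1 table of FPKM per gene and library. Columns were matched to samples by name, with KD read as CLGN knock down. Gene positions equalled GENCODE 29 for all 58735 genes. FPKM times gene length fell on whole reads for 100% of values (tolerance 0.01 of a read), which gave the read totals.

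The comparison used limma 3.58.1 in R 4.3.3 (eBayes with an intensity trend, two-sided) on log2(FPKM + 1), which understates changes of low genes, for genes that reached 1 FPKM in 3 or more libraries. Calls were made at a Benjamini-Hochberg adjusted p of 0.05, and 2-fold changes were counted separately. The scripts were tested on simulated data. The alternatives were a pseudocount of 0.1, no filter, median-ratio scaling, quantile normalization, TPM rescaling, eBayes without trend, voom on recovered reads, a replicate block, each library left out, and 2 chosen after seeing the data, a GC correction and scaling by read totals. Named were CLGN, every host gene, the first 4 genes of each list by adjusted p, small RNAs inside host genes by level, and neighbouring genes chosen after their values were seen. Of the genes that this rule selects, 1 is not reported here. The members and the lists were chosen with earlier results of these data known.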

Additional observations from a re-analysis of the deposited data

How the results depend on the processing

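SNHG1, SNHG7, SNHG15, SNHG16, SNHG17, EPB41L4A-AS1, SNHG3, SNHG10 and SNHG19 kept their direction and call under all 10 alternatives and all 6 fits without a library. The log2 change of DANCR reversed to 0.05 after the GC correction, 0.13 under quantile normalization and 0.03 under scaling by read totals. GAS5 changed from -0.02 to 0.26 under quantile normalization. SNU13 reversed to 0.01, 0.11 and 0.02 under the same 3 settings. The count of higher host genes, 5, became 3 with no filter on low values and 8 under scaling by read totals. The count of host genes higher by 2-fold, 0, became 1 after the GC correction, TPM rescaling, a pseudocount of 0.1 and voom. Scaling by read totals moved the median of all genes by 0.16 and TPM rescaling by 0.11. All genes called higher and lower, 3496 and 5102, became 4956 and 3421 under scaling by read totals, and 4285 and 3923 under TPM rescaling. The library size behind FPKM lay below the read total in each sh-NC library and above it in each sh-CLGN library. Scaling by read totals removes this difference between the groups. Why the library sizes and read totals differ was not tested, nor was the cause of the shift under TPM rescaling. Calls were lost on SNHG8, SNHG5, SNHG12 and SNHG25 under quantile normalization, on SNHG11 after the GC correction and TPM rescaling, on SNHG5 and SNHG11 under scaling by read totals, on SNHG12, SNHG25 and DANCR with no filter, and on DANCR also under TPM rescaling (-0.03) and eBayes without trend. Voom on recovered reads called 8859 genes against 8598. The fit with a replicate block called 9 host genes lower and 5 higher, with DANCR lost (limma adjusted p = 0.0618). Replicate numbers did not pair the samples: deviations of same-numbered libraries correlated at -0.02, -0.05 and -0.15. Fits without a library gave 9 to 10 lower and 4 to 5 higher host genes. Depth limits genes with few reads, such as SNHG25 and most small RNAs.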
